A study of Mus musculus with 9 samples.

Results

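The genes described here mark the blood vessels of the brain: endothelial cells, which line the vessels, and mural cells, the pericytes and smooth muscle cells that wrap them. They were chosen by name. A list of 33 symbols was matched exactly to the symbols of the count table, and 32 were found among its 55401 genes: 20 endothelial genes, 5 genes of the blood-brain barrier and 7 mural genes. The symbol Kcnj8x matched no row. All 32 genes passed the filter on low counts, which kept 17818 genes. The tissue was bulk forebrain of female mouse embryos at embryonic days E16 to E17. It came from 5 Npas3+/+ (WT) embryos, numbered 5, 15, 16, 41 and 43, and 4 embryos of a constitutive knockout line heterozygous for Npas3 (HET, Npas3+/-), numbered 5, 6, 7 and 24. *Npas3* encodes a bHLH-PAS transcription factor, and in this line its deletion is present in every cell, vascular cells included. Astrocytes are given as cell type in the labels but bulk forebrain in the protocol, and endothelial, mural and red blood cell genes were all detected. The 7 astrocyte markers differed widely in level. *Gfap* was at 4.23 to 12.5 CPM, the count scaled to library size, and *S100b* was at no more than 0.326 CPM. *Aqp4* was at 1.17 to 2.02 CPM in WT and 0.163 to 1.07 CPM in HET embryos, without overlap. *Aldh1l1* was at 15.3 to 31.7 CPM in WT and 2.79 to 18.5 CPM in HET embryos. Higher levels were found for *Slc1a3* (247 to 319 CPM), *Aldoc* (159 to 253 CPM) and *Gja1* (75.5 to 102 CPM).

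Brain endothelial cells are held together by adherens and tight junctions and carry transporters that decide what crosses from the blood into the tissue, which together form the blood-brain barrier. Vessels invade the embryonic brain under the control of VEGF, angiopoietin, Notch and Wnt signals. Endothelial cells release PDGF-B, which recruits pericytes through the receptor PDGFRB. The choroid plexus, which makes cerebrospinal fluid, differs: its vessels are fenestrated, and its barrier is formed by the epithelium.

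Total counts were 42640218 to 62830060 per embryo, with a median of 45845845. Levels are given in CPM after TMM scaling, and differences between genotypes as log2 fold changes of HET against WT from edgeR's quasi-likelihood test, with the standard error (SE). *Npas3* itself was at 40.8, 37.0, 29.7, 35.4 and 38.3 CPM in WT embryos 5, 43, 16, 15 and 41 and at 28.2, 27.9, 34.1 and 27.8 CPM in HET embryos 6, 5, 7 and 24. HET embryo 7 lay among the WT embryos, and the log2 fold change of −0.30 (SE 0.10) had an adjusted p of 0.877 in edgeR. The astrocyte markers *Aqp4* and *Aldh1l1* had log2 fold changes of −1.63 (SE 0.44) and −1.16 (SE 0.42). Their adjusted p values were 0.555 and 0.904 in edgeR. Of the 6 astrocyte markers tested, 4 lay below 0 and 2 above. *Ttr*, the transthyretin gene that marks choroid plexus epithelium, separated the embryos into clusters: it was at 0.770, 2.14, 2127, 2536 and 2631 CPM in WT embryos 5, 43, 16, 15 and 41 and at 2.47, 5.78, 11.7 and 467 CPM in HET embryos 6, 5, 7 and 24. Below, values per embryo follow this same order, from the lowest to the highest *Ttr* within each genotype. The summed level of 10 choroid plexus epithelium markers was 19.2 to 2958 CPM in WT and 29.2 to 545 CPM in HET embryos. For 9 markers of meningeal fibroblasts, a vessel-associated tissue, the sum was 15.6 to 61.1 CPM in WT and 22.1 to 29.9 CPM in HET embryos, and it was highest in WT embryos 16, 15 and 41. The 8 forebrain markers summed to 1571 to 1984 CPM in WT and 1589 to 1729 CPM in HET embryos. Of the markers of hindbrain and spinal cord, *Hoxa2*, *Hoxb3* and *Hoxa5* were at 0 in every embryo, and *En2* was at 0 to 0.227 CPM.

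The first comparison asked whether the vascular genes differ in level between HET and WT forebrain. No vascular gene passed the threshold of an adjusted p of 0.05 in edgeR (0 of 32), where 0.14% of all tested genes did (25 genes, 0.112% lower and 0.0281% higher in HET embryos). DESeq2 and limma-voom also called 0 of the 32, with 0.393% and 0.14% of their tested genes called. At an unadjusted p under 0.05, 7 genes (21.9%) were lower in HET embryos, against 3.09% of all tested genes: *Pecam1*, *Kdr*, *Sox7*, *Robo4*, *Plvap*, *Slco1c1* and *Slco1a4*. None was higher at that level, against 2.32% of all tested genes. The log2 fold change was below 0 for 26 of 32 genes (81.2%), against 51.5% of all tested genes. Its median was −0.19 over the endothelial genes (17 of 20 below 0), −0.17 over the barrier genes (4 of 5) and −0.15 over the mural genes (5 of 7), beside −0.005 over all tested genes. In this bulk tissue, fewer vascular cells and less RNA per vascular cell cannot be told apart. Genes of one cell type move together with the number of those cells, so the 32 genes are not independent replicates.

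Many vascular genes moved with the *Ttr* level among the WT embryos. In 15 of the 32 genes (46.9%), WT embryos 16, 15 and 41, the WT embryos rich in *Ttr*, all lay above WT embryos 5 and 43, against 15.6% of all tested genes. The 15 were *Pecam1*, *Tek*, *Eng*, *Emcn*, *Esam*, *Egfl7*, *Erg*, *Fli1*, *Plvap*, *Pdgfb*, *Slco1c1*, *Slco1a4*, *Vtn*, *Acta2* and *Anpep*. The opposite order held for 1 gene, *Notch3*, against 13.7% of all tested genes. In 8 of the 15 genes, HET embryo 24, the HET embryo with the most *Ttr*, also lay above the other 3 HET embryos, so that both genotypes showed the order in 8 of 32 genes, against 5.16% of all tested genes. HET embryo 24 lay above the other HET embryos in 12 of 32 genes (37.5%), against 23.3% of all tested genes. Because the embryos fall into clusters by *Ttr*, no correlation was computed.

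A pair of further fits took the *Ttr* pattern into account. With the mean log2 CPM of the choroid plexus markers as a covariate, the median log2 fold change was −0.12 over the endothelial, −0.10 over the barrier and −0.05 over the mural genes, and 22 of 32 genes (68.8%) lay below 0, against 50.1% of all tested genes. Among the 2 WT and 3 HET embryos under 100 CPM of *Ttr*, the medians were −0.04, −0.01 and −0.08, and 22 of the 31 tested genes lay below 0, against 49.0% of all tested genes. Neither fit called a vascular gene: 0 of 32 with the covariate (0.129% of all tested genes) and 0 of 31 among the low-*Ttr* embryos (0.0839%), where *Acta2* was too low to be tested. At an unadjusted p under 0.05, the covariate fit held 4 of the genes, *Sox7*, *Robo4*, *Slco1a4* and *Notch3*, against 5.33% of all tested genes, and the low-*Ttr* fit held 2, *Slco1a4* and *Notch3*, against 3.7%. *Slco1a4* was higher in HET embryos in both fits (0.69 and 1.36), whereas *Sox7*, *Robo4* and *Notch3* were lower where held. The low-*Ttr* fit rests on 5 embryos. In WT embryo 5, which is in that fit, the embryonic globin *Hbb-y* was at 12.1 CPM, against 0.889 to 2.94 CPM in the other embryos. The age of each embryo within E16 to E17 is not given, and an effect of age was not tested. How far choroid plexus in the dissected tissue accounts for the pooled difference was not tested.

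**Figure D1:**
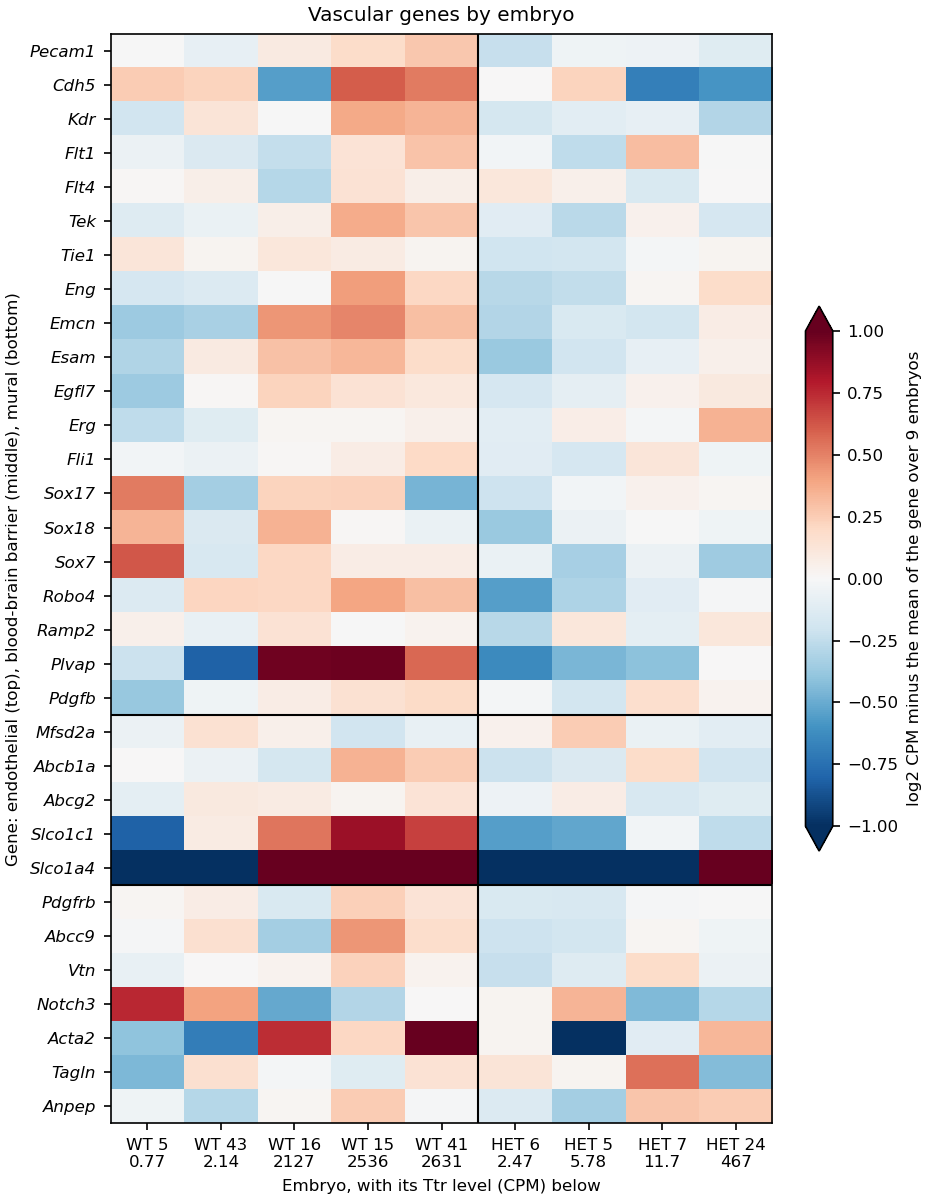
Deviation of each vascular gene (rows, grouped as endothelial, barrier and mural) from its own mean over the 9 embryos, in log2 CPM, with one column per embryo ordered by Ttr within genotype. Colours stop at 1 in either direction. WT embryos 15 and 41 are each above the mean for 28 of the 32 genes, and HET embryos 5 and 6 for 8 and 6 of them.

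The embryos themselves can be placed by the median deviation of each group of genes, measured as log2 CPM minus the gene's mean over the 9 embryos. For the endothelial genes it was −0.10, −0.07, 0.10, 0.16 and 0.19 in the WT embryos and −0.19, −0.16, −0.04 and 0.00 in the HET embryos. Thus the WT embryos low in *Ttr* lay within the range of the HET embryos, and the other WT embryos above it. The barrier genes gave −0.10, 0.08, 0.09, 0.34 and 0.25 in WT and −0.21, −0.14, −0.07 and −0.12 in HET embryos. Medians of the mural genes were −0.04, 0.08, −0.02, 0.23 and 0.14 in WT and −0.13, −0.16, 0.02 and −0.05 in HET embryos. WT embryos 15 and 41 were the highest in all 3 groups. Over all tested genes, the median deviation stayed between −0.003 and 0.016. The summed endothelial level was 179 to 230.4 CPM in WT and 167 to 183 CPM in HET embryos, and the summed mural level 75.2 to 119.3 CPM in WT and 84.3 to 97.3 CPM in HET embryos.

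**Figure D2:**
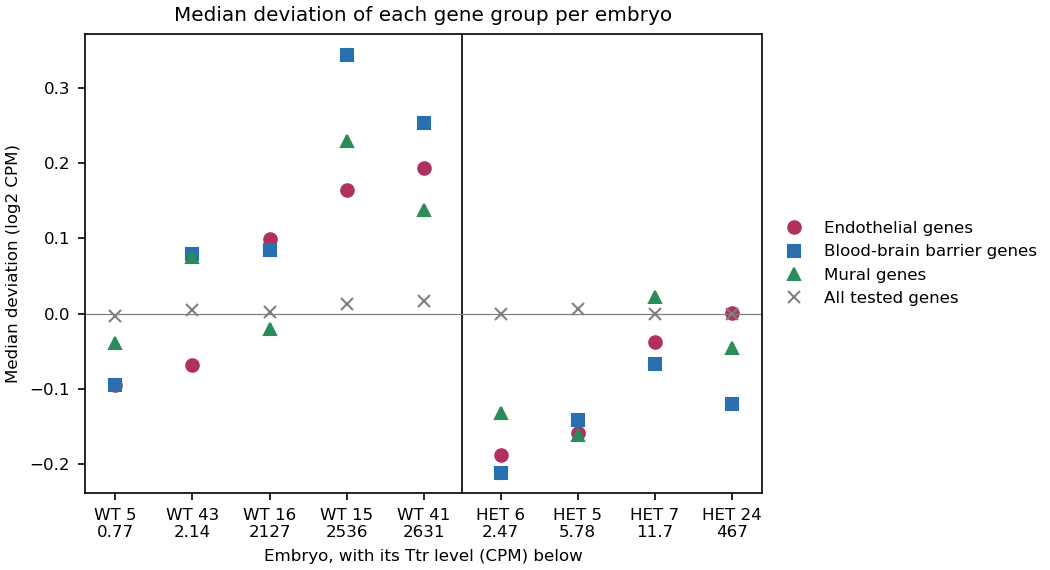
Median deviation (log2 CPM) of the endothelial, barrier and mural genes in each embryo, with the embryo's Ttr level in CPM under its label and crosses for all tested genes. WT embryos 15 and 41 lie highest in all 3 groups, while WT embryo 5 lies near the HET embryos.

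Among the receptors for VEGF, *Kdr*, which carries most of the VEGF signal in endothelial cells, had the largest difference. *Kdr* (chromosome 5, 75932827 to 75978458) was at 37.3, 46.8, 42.7, 55.6 and 54.0 CPM in WT and 37.7, 39.7, 40.4 and 34.9 CPM in HET embryos. WT embryo 5 lay among the HET embryos, and WT embryos 43, 16, 15 and 41 lay above all of them. *Kdr* had a log2 fold change of −0.31 (SE 0.11), with an unadjusted p of 0.0197 and an adjusted p of 0.907 in edgeR. It was −0.22 with the choroid plexus covariate and −0.10 among the low-*Ttr* embryos. *Flt1*, a decoy-like VEGF receptor, was at 11.0 to 15.9 CPM in WT and 10.9 to 16.2 CPM in HET embryos (log2 fold change 0.01, SE 0.14). *Flt4*, the receptor for VEGF-C on sprouting and lymphatic endothelium, was lower still at 3.13 to 4.25 and 3.45 to 4.15 CPM (0.00, SE 0.12). The ligand *Vegfa* was at 51.6 to 83.9 CPM in WT and 56.8 to 71.8 CPM in HET embryos (0.00, SE 0.13), and the groups overlapped.

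Among receptors of the angiopoietin and TGF-beta pathways, *Tie1* encodes an orphan partner of the angiopoietin receptor. It was the 1 gene of the 32 with every HET embryo below every WT embryo (3.12%, against 1.07% of all tested genes). Of the 32, 0 had every HET embryo above, against 0.786%. Among the other vascular genes described below, *Ndp*, *Fzd4*, *Icam2* and *Notch4* also had every HET embryo below every WT embryo. *Tie1* was at 13.4, 12.6, 13.3, 13.0 and 12.6 CPM in WT and 10.7, 10.8, 12.2 and 12.6 CPM in HET embryos, and was given per embryo because of this order. The lowest WT embryo and HET embryo 24 were equal to 3 digits. Its log2 fold change of −0.16 (SE 0.08) had an adjusted p of 0.911 in edgeR, and it was −0.15 with the covariate and −0.21 among the low-*Ttr* embryos. *Tek*, the angiopoietin receptor, had a log2 fold change of −0.24 (SE 0.13) over all embryos and −0.01 among those low in *Ttr*. *Eng*, a TGF-beta co-receptor, gave −0.15 (SE 0.15) and −0.01 in these fits. Both were highest in WT embryos 16, 15 and 41 among the WT embryos.

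The adhesion and junction genes were among the more abundant endothelial genes per length. *Pecam1*, an adhesion molecule between endothelial cells and a general marker of them, was at 18.6, 17.7, 19.9, 21.2 and 22.6 CPM in WT and 16.0, 18.2, 18.02 and 17.2 CPM in HET embryos (−0.21, SE 0.09, with −0.13 under the covariate and −0.06 among the low-*Ttr* embryos). WT embryo 43 lay inside the HET range and the remaining WT embryos above it. *Esam*, an adhesion molecule of endothelial tight junctions, was at 7.75, 10.2, 11.7, 12.03 and 10.9 CPM in WT and 7.41, 8.38, 9.01 and 9.93 CPM in HET embryos (−0.28, SE 0.14, with −0.13 and −0.12 in the same fits), so that WT embryo 5 was among the HET embryos. *Cdh5*, the cadherin of endothelial adherens junctions, did not follow *Ttr*: it was at 14.6, 14.3, 8.37, 18.6 and 17.6 CPM in WT and 12.3, 14.3, 7.63 and 8.12 CPM in HET embryos. WT embryo 16 and HET embryos 7 and 24 formed a low cluster apart from the remaining embryos. Its log2 fold change was −0.47 (SE 0.25), and *Cdh5* was chosen for this description after its values were seen.

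The secreted and surface proteins of endothelium varied in how they followed the embryos. *Robo4*, an endothelial guidance receptor that stabilizes vessels, had the smallest p among the 32 genes. In the other vascular lists, *Ndp*, *Nid2* and *Esm1* had smaller ones. It was at 4.74, 6.03, 6.003, 6.86 and 6.41 CPM in WT and 3.54, 4.20, 4.82 and 5.15 CPM in HET embryos, and apart from WT embryo 5 the WT embryos lay above all HET embryos. The log2 fold change of −0.44 (SE 0.15) had an unadjusted p of 0.0121 and an adjusted p of 0.846 in edgeR, and it was −0.32 with the covariate and −0.36 among the low-*Ttr* embryos. *Emcn*, a sialomucin of venous and capillary endothelium, had a log2 fold change of −0.29 (SE 0.20) that became 0.02 with the covariate and 0.14 among the low-*Ttr* embryos. *Egfl7*, a secreted endothelial protein, gave −0.07 (SE 0.13), and *Ramp2*, a partner of the adrenomedullin receptor, −0.06 (SE 0.11). Of the exonic bases of *Ramp2*, 33.4% overlap *Vps25* on the same strand, and the levels of *Ramp2* are uncertain for that reason.

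*Plvap* forms the diaphragms of fenestrated vessels and is lost from vessels that acquire the barrier. It was at 2.26, 1.48, 5.20, 5.24 and 3.94 CPM in WT and 1.68, 1.91, 1.96 and 2.63 CPM in HET embryos. WT embryos 16, 15 and 41 lay above the remaining 6 embryos, and HET embryo 24 was the highest of its genotype. Its log2 fold change was −0.82 (SE 0.34), with an unadjusted p of 0.0359 and an adjusted p of 0.909 in edgeR. With the covariate it was −0.24, and among the low-*Ttr* embryos −0.01. As a ratio to *Pecam1*, *Plvap* was at 0.121, 0.0836, 0.261, 0.247 and 0.175 in WT and 0.105, 0.105, 0.109 and 0.153 in HET embryos, so its share relative to this general endothelial marker was also highest in the embryos rich in *Ttr*.

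**Figure D3:**
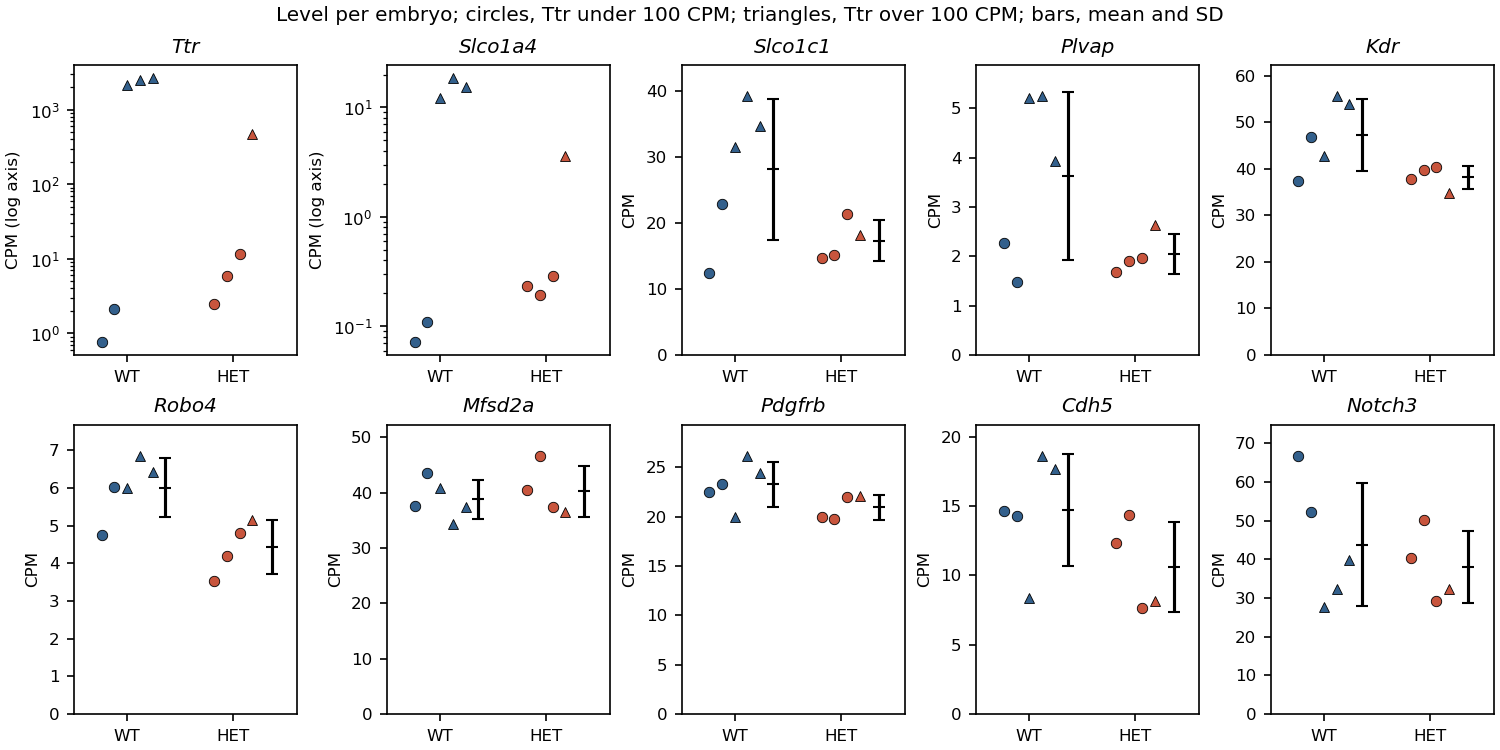
Level (CPM) of Ttr and 9 vascular genes in each embryo by genotype, on a log axis for Ttr and Slco1a4; circles are embryos under 100 CPM of Ttr, triangles those above, and bars, drawn on the linear axes, give the mean and SD of 5 WT and 4 HET embryos. For Slco1a4 and Plvap the WT triangles stand above every other embryo.

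The endothelial transcription factors were low, and *Sox7* had the largest difference among them. *Erg* and *Fli1*, ETS factors that maintain endothelial identity, had log2 fold changes of 0.14 (SE 0.13) and −0.09 (SE 0.11). *Erg* was at 3.87 to 4.77 CPM in WT and 4.28 to 5.89 CPM in HET embryos, one of 6 vascular genes with a log2 fold change above 0. *Sox7*, *Sox17* and *Sox18*, the SoxF factors of vessel and arterial development, gave −0.39 (SE 0.17), −0.12 (SE 0.21) and −0.23 (SE 0.15). *Sox7* was at 3.90, 2.25, 2.91, 2.65 and 2.65 CPM in WT and 2.40, 1.99, 2.42 and 1.96 CPM in HET embryos. WT embryo 5 was the highest and WT embryo 43 lay inside the HET range. Its unadjusted p was 0.0455 and its adjusted p 0.911 in edgeR, and the log2 fold change was −0.46 with the covariate and −0.43 among the low-*Ttr* embryos. *Pdgfb*, the endothelial ligand that recruits pericytes, was at 7.29 to 10.8 CPM in WT and 8.36 to 10.7 CPM in HET embryos (−0.01, SE 0.13).

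The 5 barrier genes encode transporters of the luminal or abluminal membrane, and they differed in how they followed *Ttr*. *Mfsd2a*, which carries lysophospholipids with omega-3 fatty acids into the brain and holds transcytosis low, was at 37.7, 43.6, 40.8, 34.4 and 37.4 CPM in WT and 40.4, 46.7, 37.5 and 36.4 CPM in HET embryos. The groups overlapped, with a log2 fold change of 0.05 (SE 0.09). *Abcg2*, a drug efflux pump, was at 21.1, 24.1, 23.9, 23.0 and 24.8 CPM in WT and 21.7, 23.8, 20.2 and 20.7 CPM in HET embryos (−0.12, SE 0.08). It varied little: its SD within genotype was at percentile 15.4 of all tested genes. *Abcb1a*, the P-glycoprotein pump, was at 3.48 to 5.02 CPM in WT and 3.40 to 4.48 CPM in HET embryos (−0.17, SE 0.15), and 22.5% of its 50-base words also occur in other genes, mostly in its paralog *Abcb1b*.

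The organic anion transporters *Slco1c1*, which carries thyroxine, and *Slco1a4* lie on chromosome 6 (141524368 to 141570177 and 141805440 to 141856199). *Slco1c1* was at 12.3, 22.8, 31.4, 39.1 and 34.7 CPM in WT and 14.7, 15.1, 21.3 and 18.1 CPM in HET embryos. WT embryos 16, 15 and 41 were the highest and WT embryo 5 the lowest of all 9, while HET embryo 24 lay below HET embryo 7, so the *Ttr* order held among the WT embryos alone. A log2 fold change of −0.70 (SE 0.28) had an unadjusted p of 0.0284 and an adjusted p of 0.908 in edgeR, and was −0.28 with the covariate and −0.05 among the low-*Ttr* embryos. *Slco1a4* was at 0.0722, 0.110, 12.2, 18.4 and 15.2 CPM in WT and 0.233, 0.195, 0.289 and 3.61 CPM in HET embryos, on 3 to 967 counts. It was near 0 in every embryo low in *Ttr* and above 3 CPM in every embryo rich in it. The log2 fold change over all embryos was −3.06 (SE 1.37), with an unadjusted p of 0.047 and an adjusted p of 0.911 in edgeR. Its direction turned to 0.69 with the covariate and to 1.36 among the low-*Ttr* embryos (adjusted p of 0.597 and 0.999 in edgeR), the latter on 3 to 14 counts per embryo. Without HET embryo 24 it was −5.25. *Slco1c1* and *Slco1a4* are known in choroid plexus as well as in brain endothelium, and which cells gave these counts was not tested.

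The promoters of *Slco1a4* and *Slco1c1*, of *Mfsd2a*, whose genotypes overlapped, and of the endothelial genes with the smallest unadjusted p values, *Kdr* and *Robo4*, are shown to set these genes' start regions side by side. Each runs 5′ to 3′ on the gene's strand from 250 bases before to 50 bases after the start site, from RefSeq on GRCm38.p6. Capitals mark every match, on either strand, of CCGGAA (an extended form of ETS factor sites), ACGTG (core of bHLH-PAS sites) or ACAATG (core of SOX sites). The shorter ETS core GGAA was not counted, so a window without CCGGAA can still hold it. The windows are chr6:141856171-141856470 (minus strand), chr6:141524104-141524403 (plus), chr4:122961139-122961438 (minus), chr5:75978406-75978705 (minus) and chr9:37401722-37402021 (plus).
Slco1a4: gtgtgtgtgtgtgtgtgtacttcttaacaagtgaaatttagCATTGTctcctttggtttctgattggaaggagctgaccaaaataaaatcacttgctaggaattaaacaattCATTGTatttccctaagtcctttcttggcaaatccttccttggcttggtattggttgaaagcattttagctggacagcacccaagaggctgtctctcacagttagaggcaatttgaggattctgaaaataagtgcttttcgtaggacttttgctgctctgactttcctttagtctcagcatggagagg
Slco1c1: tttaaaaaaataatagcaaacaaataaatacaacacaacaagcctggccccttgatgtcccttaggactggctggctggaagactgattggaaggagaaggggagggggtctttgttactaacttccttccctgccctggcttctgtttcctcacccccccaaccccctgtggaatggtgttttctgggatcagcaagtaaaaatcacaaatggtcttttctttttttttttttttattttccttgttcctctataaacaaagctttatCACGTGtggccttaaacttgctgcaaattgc
Mfsd2a: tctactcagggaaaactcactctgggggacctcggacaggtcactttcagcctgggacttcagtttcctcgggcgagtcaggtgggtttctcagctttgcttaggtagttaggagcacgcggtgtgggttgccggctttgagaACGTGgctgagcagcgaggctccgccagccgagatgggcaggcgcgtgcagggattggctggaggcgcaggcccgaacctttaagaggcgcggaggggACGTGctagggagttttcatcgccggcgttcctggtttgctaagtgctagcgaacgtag
Kdr: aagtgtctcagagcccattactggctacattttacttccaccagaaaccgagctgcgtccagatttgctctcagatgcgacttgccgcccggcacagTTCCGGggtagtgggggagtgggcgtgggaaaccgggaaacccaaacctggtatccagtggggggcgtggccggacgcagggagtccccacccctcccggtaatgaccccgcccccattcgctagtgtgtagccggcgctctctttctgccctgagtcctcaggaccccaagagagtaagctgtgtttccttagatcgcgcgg
Robo4: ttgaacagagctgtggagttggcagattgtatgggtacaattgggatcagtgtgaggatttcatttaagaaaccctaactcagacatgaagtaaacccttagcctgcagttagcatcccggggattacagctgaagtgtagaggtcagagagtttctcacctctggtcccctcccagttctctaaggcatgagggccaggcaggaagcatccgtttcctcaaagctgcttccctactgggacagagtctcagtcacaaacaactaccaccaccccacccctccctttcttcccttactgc
*Slco1a4* held ACAATG on the opposite strand at positions −209 and −138 from the start site. In *Slco1c1*, a palindrome holds overlapping matches of ACGTG on both strands at positions 20 and 21, and *Mfsd2a* held ACGTG at positions −107 and −9. *Kdr* held CCGGAA on the opposite strand at position −153, and the *Robo4* window held none of the 3 motifs. A promoter window was found for 20 of the 32 genes (26 windows). CCGGAA was in 1 of the 26 (3.85%), against 14.9% of all 32851 promoter windows of this length. ACGTG was in 3 (11.5%), against 19.6%, and ACAATG in 3 (11.5%), against 12.6%. None of the motifs was more frequent in these windows than in all promoters. A match is a run of letters and not a site that was measured.

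The mural genes ranged from the more abundant *Notch3*, *Vtn*, *Pdgfrb* and *Abcc9* to *Anpep* and the smooth muscle genes *Tagln* and *Acta2*, which were far lower. *Pdgfrb*, the PDGF-B receptor of pericytes, was at 22.5, 23.3, 19.97, 26.2 and 24.4 CPM in WT and 19.96, 19.8, 22.01 and 22.1 CPM in HET embryos (−0.15, SE 0.09). WT embryo 16 lay inside the HET range and the remaining WT embryos above it. *Abcc9*, a subunit of the potassium channel of pericytes, was at 18.6, 20.98, 14.9, 25.5 and 21.2 CPM in WT and 16.3, 16.5, 19.1 and 18.2 CPM in HET embryos (−0.21, SE 0.14). WT embryo 16 was the lowest of all 9 embryos. *Vtn*, vitronectin, a secreted protein of pericytes, was at 9.50, 10.02, 10.2, 11.7 and 10.2 CPM in WT and 8.52, 9.14, 11.3 and 9.62 CPM in HET embryos (−0.10, SE 0.11), and the groups overlapped. *Kcnj8*, which encodes the partner of *Abcc9* in that channel and was measured outside the 32 genes, was at 5.41 to 8.03 CPM in WT and 5.93 to 7.96 CPM in HET embryos (−0.01, SE 0.14).

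*Notch3*, the Notch receptor of mural cells, was the 1 gene of the 32 with the opposite *Ttr* order among the WT embryos. It was at 66.8, 52.3, 27.8, 32.3 and 39.7 CPM in WT and 40.2, 50.1, 29.2 and 32.4 CPM in HET embryos, with the highest levels in WT embryos 5 and 43 and HET embryo 5. The log2 fold change was −0.20 (SE 0.25), −0.45 with the covariate (unadjusted p 0.0175, adjusted p 0.899 in edgeR) and −0.58 among the low-*Ttr* embryos (0.0321 and 0.999). *Notch1*, a receptor shared by endothelium and neural progenitors, was at 254, 228, 95.5, 123 and 152 CPM in WT and 214, 269, 150 and 149 CPM in HET embryos, and it too was highest in WT embryos 5 and 43 and HET embryos 6 and 5. *Notch3* is also known in neural progenitors, and the share of its counts from mural cells was not tested.

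The smooth muscle genes were the least abundant. *Acta2*, smooth muscle actin, was at 0.144, 0.110, 0.370, 0.243 and 0.488 CPM in WT and 0.210, 0.065, 0.186 and 0.269 CPM in HET embryos, which were 3 to 31 counts. At this depth the log2 fold change of −0.60 (SE 0.48) cannot be told from 0 (unadjusted p 0.242, adjusted p 0.911 in edgeR). *Tagln*, transgelin, was at 0.361 to 0.574 CPM in WT and 0.365 to 0.765 CPM in HET embryos (0.15, SE 0.24), and 67.9% of its exonic bases overlap genes on the opposite strand, so its level is uncertain. *Anpep*, an aminopeptidase on pericytes, was at 1.19 to 1.75 CPM in WT and 1.15 to 1.78 CPM in HET embryos (0.04, SE 0.18).

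**Figure D4:**
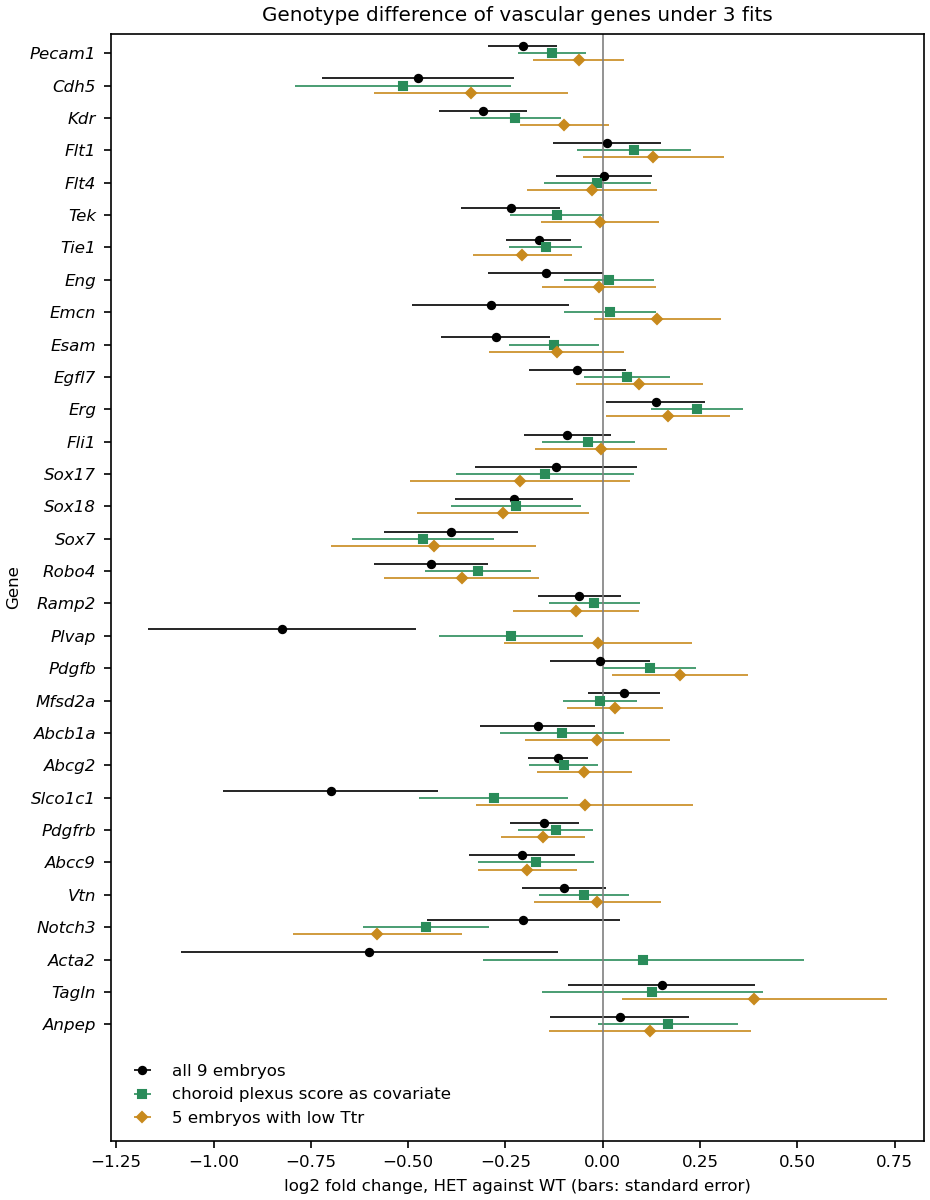
Log2 fold change of HET against WT for the vascular genes in 3 edgeR fits (all embryos, with the choroid plexus covariate, and low-Ttr embryos alone), with bars for the SE; Slco1a4 is left out for scale and Acta2 has no low-Ttr point. Plvap and Slco1c1 move from −0.82 and −0.70 in all embryos to −0.01 and −0.05 among the low-Ttr embryos. Robo4, Sox7, Tie1, Cdh5, Esam, Sox17, Sox18, Pdgfrb, Abcc9 and Notch3 stay below −0.1 in all 3 fits.

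Per kilobase of exonic length, levels can be set between genes. *Mfsd2a* was the highest, at 17.2 CPM per kb in WT and 17.9 CPM per kb in HET embryos. *Notch3* (5.41 and 4.70), *Vtn* (5.10 and 4.75), *Kdr* (5.24 and 4.23) and *Slco1c1* (5.42 and 3.34) came next. *Pdgfrb* was at 4.25 and 3.83, *Esam* at 3.66 and 3.03, *Cdh5* at 3.501 and 2.52 and *Pecam1* at 3.21 and 2.78 CPM per kb. Below *Mfsd2a* the order of these neighbours differs between the genotypes. At the low end, *Anpep* (0.352 and 0.363), *Tagln* and *Acta2* (0.124 and 0.083) were the last of the 32.

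**Figure D5:**
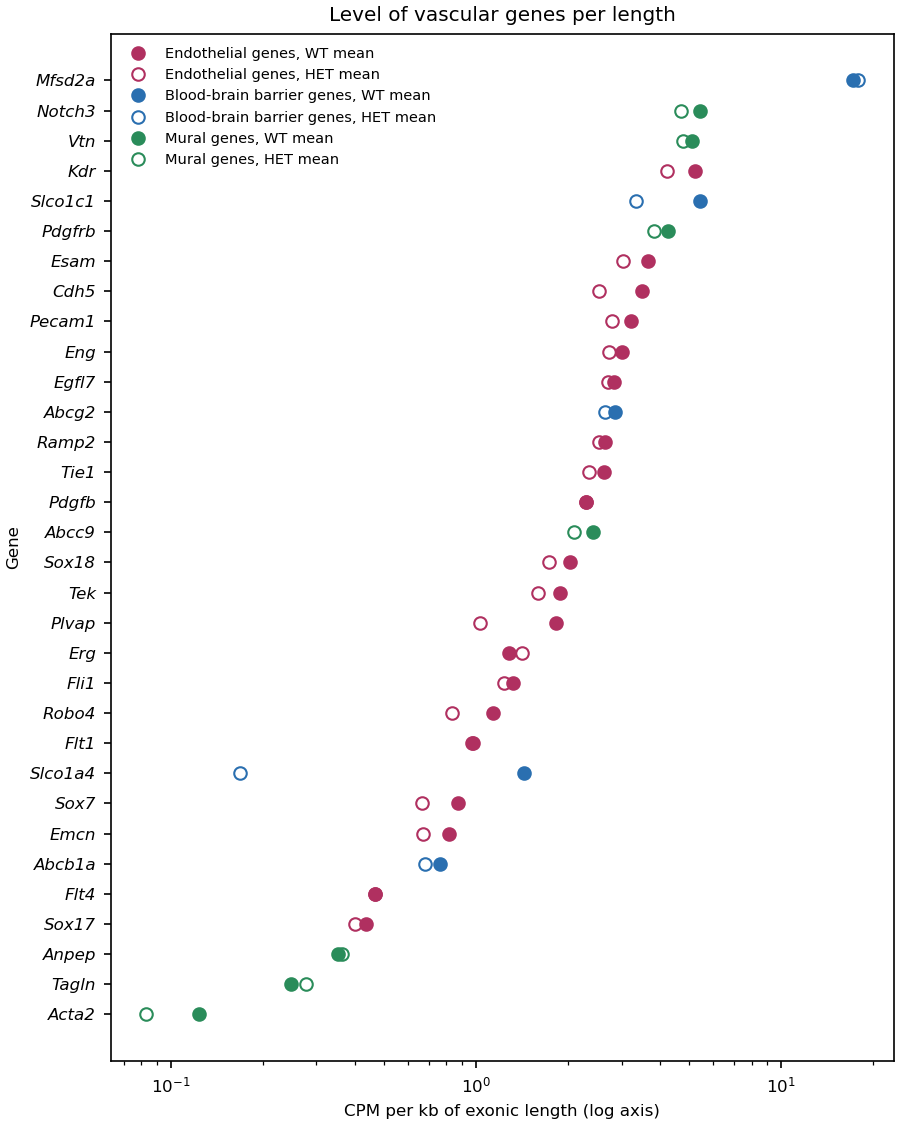
Mean level per exonic kilobase of each vascular gene (CPM per kb, log axis) in WT and HET embryos, ordered by level. Mfsd2a is highest at 17.2 in WT, and Acta2 lowest at 0.124.

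The genes also differed in how far embryos of 1 genotype spread. The SD of log2 CPM within genotype was at percentile 96.3 of all tested genes for *Acta2*, 94.4 for *Plvap*, 91.5 for *Slco1c1*, 87.6 for *Cdh5* and 87.5 for *Notch3*, and *Slco1a4* was at the top. *Tie1* was at percentile 9.19 and *Fli1* at 23.3.

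Other genes of the same pathways were taken from 4 lists of 99 genes, of which 96 could be tested. edgeR called 0 of them, as did DESeq2 and limma-voom. At an unadjusted p under 0.05, 8 were lower in HET embryos, against 3.09% of all tested genes, and 0 higher, against 2.32%. The log2 fold change was below 0 for 64 of the 96, against 51.5% of all tested genes, with a median of −0.08. With the covariate 60 lay below 0 (median −0.04, against 50.1% of all tested genes), and among the low-*Ttr* embryos 53 (median −0.02, against 49.0%). Of 39 tested angiogenic ligands, receptors and Notch genes, 4 were lower at that unadjusted level, *Esm1*, *Cd34*, *Icam2* and *Mmrn2*, and the median was −0.10. *Esm1*, a secreted proteoglycan of sprouting tip cells, had the lowest log2 fold change, −1.87 (SE 0.61; −1.06 with the covariate and −1.18 among the low-*Ttr* embryos), at 0.313, 0.287, 0.631, 1.22 and 1.06 CPM in WT and 0.0466, 0.281, 0.062 and 0.365 CPM in HET embryos. *Prox1*, a lymphatic and neuronal transcription factor, had the highest, 0.22 (SE 0.15). WT embryos 5 and 43 had less *Esm1* than HET embryo 24, so the groups overlapped. The lowest of these *Esm1* levels rest on few counts: for *Acta2*, 0.065 CPM in HET embryo 5 was 3 counts.

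Among 28 Wnt and barrier genes of brain endothelium, *Fzd4* and *Ndp*, a Frizzled receptor and its ligand norrin, were lower at the unadjusted level, with log2 fold changes of −0.35 (SE 0.12) and −0.46 (SE 0.13). Among the low-*Ttr* embryos *Fzd4* was at −0.10 and *Ndp* at −0.23. The median of the list was −0.02. *Ocln*, a tight junction protein, was at 3.58, 3.25, 9.11, 11.0 and 10.9 CPM in WT and 4.98, 3.83, 6.96 and 6.03 CPM in HET embryos (−0.47, SE 0.37). It was highest in WT embryos 16, 15 and 41, while HET embryo 24 lay below HET embryo 7, and its direction turned to 0.25 with the covariate and 0.62 among the low-*Ttr* embryos. *Slc7a5*, an amino acid transporter, had the highest log2 fold change of the list (0.15, SE 0.08). *Cldn5*, the main claudin of brain endothelium, was at 20.01 to 29.6 CPM in WT and 20.98 to 27.6 CPM in HET embryos (0.01, SE 0.13). Of 18 other mural genes tested, 0 passed the unadjusted level, with a median of −0.11, from −0.53 for *Des* to 0.25 for *Cspg4*. The median of these mural genes was −0.03 with the covariate and turned to 0.07 among the low-*Ttr* embryos, where 7 of 18 lay below 0 and *Des* was at 0.08. Of 11 basement membrane genes, *Nid1* and *Nid2*, the nidogens, were lower at the unadjusted level, with a list median of −0.09. *Nid2* was at 17.5, 18.2, 28.2, 35.2 and 31.8 CPM in WT and 14.9, 18.7, 14.9 and 16.7 CPM in HET embryos (−0.68, SE 0.21), so that WT embryos 5 and 43 lay with the HET embryos, and among the low-*Ttr* embryos its log2 fold change was −0.14. *Hspg2*, perlecan, had the highest of that list (0.04, SE 0.19), which turned to −0.07 with the covariate and −0.10 among the low-*Ttr* embryos.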

How the data were processed

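RNA of embryonic forebrain was captured by poly(A), prepared with TruSeq and sequenced, and the authors used one read of each pair. Per the submitters' processing notes, reads were aligned to GRCm38.p6 with STAR 2.7.9a and counted per gene with featureCounts on a GENCODE annotation. The deposited values are raw counts, with 1 column per embryo for 55401 genes and 0 columns without a sample. The strand setting and the handling of reads with several alignments are not given in the sources used here, so overlapping or near-identical genes can share reads. Gene lengths and overlaps came from GENCODE M21 (99.5% of identifiers matched), and promoters from RefSeq.

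Counts were fitted in R 4.3.3 with edgeR 4.0.16 (quasi-likelihood test, TMM scaling, filterByExpr at a minimum count of 10), with Benjamini-Hochberg adjustment over all 17818 tested genes and a threshold of 0.05. The common biological coefficient of variation was 16.8%. The SE was derived from the log2 fold change and its F statistic. Log2 CPM used a prior count of 2. DESeq2 1.42.0 and limma-voom (limma 3.58.1) were alternatives, with other scalings and filters, a choroid plexus covariate, embryos under 100 CPM of *Ttr*, and each embryo left out in turn. Tables and figures were made in Python 3.11.15. Groups follow each label's genotype, and p-values measure the spread between single embryos of each genotype. PCR duplicates cannot be told apart, so depth covers counting error only.

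The genes and the other vascular and marker lists were chosen with earlier results of these data known. Values per embryo are given for *Ttr*, *Plvap* and, in each group, the 3 genes with the smallest unadjusted p and the 2 with the highest CPM per kb; of other vascular lists, the genes with the highest and lowest log2 fold change are given. *Npas3* was added as the targeted gene, and further genes are named where a count or a contrast turns on them, with their values seen first.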

Additional observations from a re-analysis of the deposited data

Results flagged for a closer look

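In groups of 4 or 5 embryos, the gap of the highest or lowest embryo to its nearest neighbour was set against the range of the group with Dixon's 95% critical value. Of 68 groups, 5 passed, where chance passes about 1 in 20, or 3.4. *Slco1a4* was at 3.61 CPM in HET embryo 24, against 0.195 to 0.289 CPM in the other HET embryos, and *Ttr* was at 467 CPM in the same embryo, against 2.47 to 11.7 CPM. *Abcb1a* was at 4.48 CPM in HET embryo 7, against 3.40 to 3.57 CPM in the other HET embryos. *Npas3* was at 34.1 CPM in that same embryo, against 27.8 to 28.2 CPM. *Sox18* was at 2.35 CPM in HET embryo 6, against 2.92 to 3.04 CPM in the other HET embryos.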

How the results depend on the processing

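No vascular gene, of the 32 or of the other vascular lists, was called under any alternative; the smallest adjusted p of the 32 was 0.298 (*Robo4*, DESeq2), and 0.127 (*Slco1c1*) with an embryo left out. Over all genes, 25 were called by edgeR, 85 by DESeq2, 15 among the low-*Ttr* embryos, and 14 to 23 with 1 embryo left out, lowest without HET embryo 6. The median log2 fold change moved beyond the replicate spread for the endothelial (−0.045) and barrier genes (−0.014) among the low-*Ttr* embryos and for the mural genes with the choroid plexus covariate (−0.047). With 1 embryo left out it was −0.22 to −0.14 for endothelial, −0.27 to −0.12 for barrier and −0.17 to −0.08 for mural genes. Directions turned for *Flt4* with upper-quartile scaling (−0.0031) and no filter (−0.0014). With the covariate they turned for *Flt4* (−0.014), *Eng* (0.017), *Emcn* (0.019), *Egfl7* (0.063), *Pdgfb* (0.12), *Mfsd2a* (−0.0075), *Slco1a4* (0.69) and *Acta2* (0.10). Among the low-*Ttr* embryos they turned for *Flt4* (−0.028), *Emcn* (0.14), *Egfl7* (0.094), *Pdgfb* (0.20) and *Slco1a4* (1.36). The cause was not tested. With 1 embryo left out, direction turned for *Flt1* (−0.10 to 0.091), *Flt4* (−0.062 to 0.055), *Sox17* (−0.23 to 0.016), *Ramp2* (−0.11 to 0.020), *Pdgfb* (−0.089 to 0.051), *Mfsd2a* (−0.025 to 0.11), *Tagln* (−0.048 to 0.31) and *Anpep* (−0.045 to 0.15). The authors used WT littermates as controls, but the labels give no litter. No paired analysis was possible for that reason, and litter could not be modelled. *Acta2*, at 3 to 31 counts, could not be tested in the low-*Ttr* fit and in 3 of the fits with an embryo left out.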

Other observations

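The ratio of *Cdh5* to *Pecam1*, both general endothelial genes, fell into separate clusters and was computed after the values were seen. It was at 0.785, 0.808, 0.421, 0.879 and 0.782 in WT embryos 5, 43, 16, 15 and 41 and at 0.771, 0.789, 0.423 and 0.473 in HET embryos 6, 5, 7 and 24. WT embryo 16 and HET embryos 7 and 24 lay near 0.4, and the remaining 6 embryos near 0.8, so the clusters crossed genotype and *Ttr* level. In counts, *Cdh5* was at 385, 369 and 423 in the low cluster. *Slco1a4* as a percentage of *Ttr* was 9.38, 5.15, 0.576, 0.726 and 0.579 in WT and 9.43, 3.37, 2.47 and 0.774 in HET embryos, near 0.6 to 0.8 in the embryos rich in *Ttr* and higher in the others, where *Slco1a4* rests on 3 to 14 counts.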
